A study of Mus musculus with 65 samples.

Results

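LDB1-only sites are the LDB1 peaks of untreated LDB1-AID cells that share no base with a CTCF, RAD21 or YY1 peak of the same untreated cells. On chromosomes 1 to 19 and X there were 6593 of them among 10729 LDB1 peaks, which was 61.5% (Wilson 95% interval 60.5 to 62.4). The sites were chosen by their lack of overlap with the CTCF, RAD21 and YY1 calls, so that lack is not a result. The remaining 4136 LDB1 peaks carried at least 1 of these proteins. Of those, 1369 overlapped RAD21 but neither CTCF nor YY1, 1182 overlapped YY1 alone, 791 overlapped RAD21 and YY1 without CTCF, and the rest overlapped CTCF.

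The study performed ChIP-seq, which maps where a protein sits on DNA, in derivatives of G1E-ER4, an erythroid progenitor line from mouse. G1E-ER4 cells derive from a line that lacks GATA1 and carry an estradiol-activated GATA1, and the labels do not say whether estradiol was given. In the LDB1-AID subline LDB1 itself carries an auxin-inducible degron, and in the SMC3-AID subline the cohesin subunit SMC3 does, also in the untreated cells of each subline. The groups used are LDB1-AID cells untreated (LDB1, CTCF, RAD21 and YY1 ChIP) or given auxin for 4 h (LDB1 ChIP), and SMC3-AID cells untreated or given auxin for 4 h (LDB1 and RAD21 ChIP for both). The labels do not say whether a subline is 1 clone.

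LDB1 does not bind DNA. It is carried to erythroid enhancers and promoters by a complex with GATA1, TAL1, E proteins and LMO2, and it dimerises, which lets distant sites be held together. CTCF binds DNA directly and marks the places where cohesin, the ring complex that contains RAD21 and SMC3, halts as it extrudes loops. YY1 binds DNA at promoters and enhancers and can also dimerise.

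Each deposited set is a list of 400 bp intervals with no score, so the measurement is whether a site was called or not in another set. The LDB1-AID sets combine 2 replicates and the SMC3-AID sets combine 3, and no replicate error can be given. Set sizes on the same chromosomes were 1043 LDB1 peaks after auxin in LDB1-AID cells, and 8585 untreated and 7237 auxin LDB1 peaks in SMC3-AID cells. The intervals given hold counting error alone, because peaks depend on each other and do not stand for replicates. Read depth and peak height are unknown, and whether LDB1-only sites differ from other LDB1 sites in peak height was not tested. Genome sequence was not used here, so the sites are given by position and not by motif or gene.

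LDB1-only sites were rarely called after LDB1 had been degraded. In the LDB1 set of LDB1-AID cells after 4 h of auxin, 203 of the 6593 were still present, or 3.08% (2.69 to 3.52), and 6390 were not. The background over all untreated LDB1 peaks was 7.77%. Among the other LDB1 peaks, 631 of 4136 were kept, or 15.3% (14.2 to 16.4). The odds ratio of being kept was 0.176 (95% limits 0.15 to 0.208; exact test of Fisher with both tails, p = 3.63e-114, Benjamini-Hochberg adjusted p = 4.54e-113 over 25 tests).

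The same direction held against LDB1 peaks with RAD21 alone and against those with YY1 alone. LDB1 peaks with RAD21 alone were kept in 14.9% of cases (13.1 to 16.9), and the odds ratio of LDB1-only sites against them was 0.181 (0.148 to 0.222; Fisher's exact test, adjusted p = 4.81e-55). LDB1 peaks with YY1 alone were kept in 9.81% (8.25 to 11.6), with an odds ratio of 0.292 (0.23 to 0.37; exact adjusted p = 4.76e-21). LDB1 peaks with CTCF alone numbered 215 and were kept in 4.65% (2.55 to 8.35), an interval that overlaps that of the LDB1-only sites. A difference between those 2 classes was not tested. Peaks with RAD21 and YY1 kept 29% (25.9 to 32.2) of 791, and peaks with CTCF and RAD21 kept 8.01% (5.64 to 11.3) of 362. Peaks with CTCF and YY1 kept 16.7% (8.32 to 30.6) of 42, and peaks with CTCF, RAD21 and YY1 kept 20.6% (15.2 to 27.2) of 175. These classes were not tested separately.

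**Figure D1:**
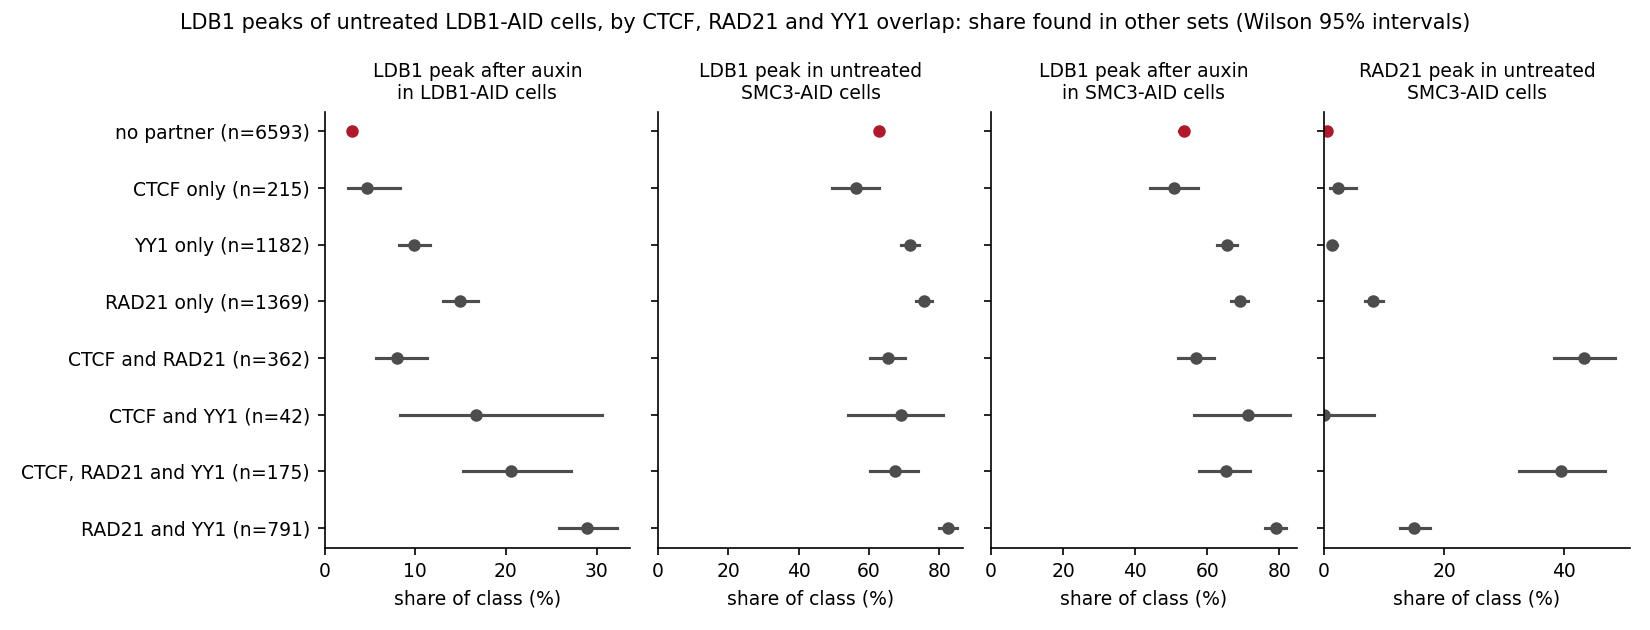
Share (%) of each class of untreated LDB1-AID LDB1 peaks that had a peak in 4 other sets, with points for the share and bars for Wilson 95% intervals; the class without CTCF, RAD21 or YY1 is red. It had 3.08% kept after LDB1 degradation, below the 9.81% of peaks with YY1 alone and the 14.9% of peaks with RAD21 alone. The share was 4.65% at peaks with CTCF alone and 29% at peaks with RAD21 and YY1.

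Presence in the other subline was also lower than at all other LDB1 peaks pooled, though not than at every class of them. Of the LDB1-only sites, 4149 had an LDB1 peak in untreated SMC3-AID cells, or 62.9% (61.8 to 64.1), where 67% of all LDB1 peaks did. The other LDB1 peaks reached 73.6% (72.2 to 74.9), and the odds ratio was 0.61 (0.56 to 0.664; Fisher's exact test, adjusted p = 5.69e-30). Against peaks with RAD21 alone (75.7%) it was 0.544 (0.476 to 0.621; exact adjusted p = 5.13e-20), and against peaks with YY1 alone (71.7%) it was 0.669 (0.584 to 0.766; adjusted p = 7.43e-09). Peaks with CTCF alone were found in 56.3% of cases (49.6 to 62.7) and peaks with CTCF and RAD21 in 65.5% (60.4 to 70.2), so the lowest share was not that of the LDB1-only sites. These were not tested. No auxin had been given for these 2 sets, so these shares describe how often a site was called in both sublines.

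Most LDB1-only sites found in SMC3-AID cells stayed called when cohesin was degraded. Of the 4149 found in untreated SMC3-AID cells, 3301 were also called after auxin, or 79.6% (78.3 to 80.8), against a background of 83.3% over all LDB1 peaks found there. The other LDB1 peaks kept 2691 of 3043, or 88.4% (87.2 to 89.5). The odds ratio was 0.509 (0.445 to 0.582; Fisher's exact test, adjusted p = 1.69e-23). It was 0.553 (0.453 to 0.675; exact adjusted p = 2.02e-09) against peaks with RAD21 alone, of which 87.6% were kept, and 0.574 (0.463 to 0.712; adjusted p = 2.11e-07) against peaks with YY1 alone, of which 87.1% were kept. Peaks with CTCF alone kept 82.6% (74.9 to 88.4) of 121 and peaks with CTCF and RAD21 kept 83.1% (77.8 to 87.4) of 237, intervals that overlap that of the LDB1-only sites. Peaks with RAD21 and YY1 kept 93.3% (91.1 to 94.9) of 653. Peaks with CTCF and YY1 kept 93.1% (78 to 98.1) of 29, and peaks with CTCF, RAD21 and YY1 kept 94.1% (88.3 to 97.1) of 118. Classes with and without RAD21 were not tested against each other.

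Counted over all 6593 sites, 3523 had an LDB1 peak in auxin-treated SMC3-AID cells, or 53.4% (52.2 to 54.6), with a background of 59%. The other LDB1 peaks had one in 67.7% of cases (odds ratio 0.546, 0.504 to 0.593; Fisher's exact test, adjusted p = 1.52e-48). Against peaks with RAD21 alone the odds ratio was 0.517 (exact adjusted p = 6.55e-26), and against peaks with YY1 alone it was 0.605 (exact adjusted p = 2.86e-14). Peaks with CTCF alone had one in 50.7% (44.1 to 57.3), a lower share than the LDB1-only sites, with no test. In SMC3-AID cells 222 LDB1-only sites (3.37%) were called after auxin and not before it, and 848 (12.9%) before and not after. Over all LDB1 peaks these shares were 3.1% and 11.2%.

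Retention after LDB1 degradation was lower at LDB1-only sites whether or not the site was seen in the other subline. Of the 3301 sites in both SMC3-AID LDB1 sets, 158 were kept after LDB1 degradation, or 4.79% (4.11 to 5.57), against 20% (18.6 to 21.6) of the 2691 other LDB1 peaks in both sets. Of the 2222 sites in neither SMC3-AID set, 33 were kept, or 1.49% (1.06 to 2.08), against 7.13% (5.68 to 8.91) of 982 others. The odds ratio was 0.19 among sites present in untreated SMC3-AID cells and 0.189 among those absent there, and a difference between these was not detected (Breslow-Day chi-square test, p = 0.982). The split by presence in the other subline was chosen after the data were seen.

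The joint pattern over the LDB1 sets was set beside all LDB1 peaks, of which LDB1-only sites make up 61.5%, and beside the other LDB1 peaks. Sites called in both SMC3-AID sets and not after LDB1 degradation numbered 3143 (47.7%), against 49.4% of all and 52% of the other LDB1 peaks. A further 2189 (33.2%) were called in untreated LDB1-AID cells and in none of the 3 other LDB1 sets. This pattern held for 28.9% of all and 22.1% of the other LDB1 peaks. Of the 203 sites kept after LDB1 degradation, 168 were found in untreated SMC3-AID cells, or 82.8% (77 to 87.3), against 62.3% (61.1 to 63.5) of those not kept. The other LDB1 peaks had the same direction, with 87.6% (84.8 to 90) of those kept and 71% (69.5 to 72.5) of those not kept. Seen from the other side, LDB1-only sites were 69.4% (67.7 to 70.9) of the 3204 LDB1 peaks found in neither SMC3-AID set and 55.1% (53.8 to 56.3) of the 5992 found in both.

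When LDB1 peaks of the other sets were classed against the same CTCF, RAD21 and YY1 peaks, the share without any of the 3 varied. It was 25.5% (23 to 28.2) of the 1043 peaks remaining after LDB1 degradation, 63.1% (62.1 to 64.1) of the 8585 untreated SMC3-AID peaks and 60.2% (59.1 to 61.4) of the 7237 auxin-treated SMC3-AID peaks. Among the 1366 untreated SMC3-AID peaks that had no counterpart in untreated LDB1-AID cells, it was 91.6% (90 to 92.9), against 57.7% (56.6 to 58.8) of the 7219 that had one. The 207 auxin peaks of LDB1-AID cells with no untreated counterpart lacked all 3 proteins in 32.4% of cases (26.4 to 39). These partner sets come from LDB1-AID cells in all cases, so a partner gained only in SMC3-AID cells would not be seen.

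RAD21 calls from SMC3-AID cells were not used by the rule and could be set beside it. The rule chose sites without RAD21 in LDB1-AID cells, so a lower share than at classes with RAD21 largely follows from that choice. The odds ratios against peaks with RAD21 alone and against all other LDB1 peaks are therefore descriptions and not independent support. An untreated SMC3-AID RAD21 peak lay on 27 of the 6593 LDB1-only sites, or 0.41% (0.282 to 0.595), where the background over all LDB1 peaks was 4.7%. It lay on 8.18% (6.84 to 9.75) of peaks with LDB1-AID RAD21 alone (odds ratio 0.0462, 0.0302 to 0.0706; Fisher's exact test, adjusted p = 1.65e-60) and on 1.27% (0.771 to 2.08) of peaks with YY1 alone (odds ratio 0.32, 0.17 to 0.603; adjusted p = 0.00123). Against all other LDB1 peaks (11.5%) the odds ratio was 0.0315 (exact adjusted p = 4.35e-165). Of the 27 sites, 21 lay with a gap of at most 1 kb from a RAD21 peak of LDB1-AID cells, and 4 were kept after LDB1 degradation. Among all 6593 LDB1-only sites, 549 lay so near a RAD21 peak of LDB1-AID cells, and 3.08% were kept. With so few sites these differences were not tested. The SMC3-AID RAD21 set is smaller than the LDB1-AID one, with 15223 against 33160 peaks. After SMC3 degradation no LDB1-only site had a RAD21 peak, which allows a share of up to 0.0455%. Only 25 such peaks were left on all contigs, 24 of them on chromosomes 1 to 19 and X. Few LDB1 peaks of any class could have had one, so this absence does not set LDB1-only sites apart.

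Distances to the other proteins differed by protein. The median distance between midpoints was 7.35 kb to the nearest CTCF peak (quartiles 2.92 and 17.3), 10 kb to the nearest RAD21 peak (4.1 and 21.5) and 19.9 kb to the nearest YY1 peak (6.18 and 59.2). CTCF was the closest of the 3 at 2952 sites (44.8%), RAD21 at 2116 (32.1%) and YY1 at 1514 (23%). The CTCF set is the largest, with 54223 peaks, and the YY1 set the smallest, with 12816, and this order follows the set sizes. A CTCF peak lay within 25 kb of 83% of the sites, a RAD21 peak within 25 kb of 79.3% and a YY1 peak within 25 kb of 55.5%. No YY1 peak lay within 100 kb of 998 sites (15.1%), and no peak of any of the 3 within 100 kb of 64 (0.971%). The other LDB1 peaks overlap a partner by definition, so their distances were not set beside these. To the nearest RAD21 peak of SMC3-AID cells the median was 23 kb.

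**Figure D2:**
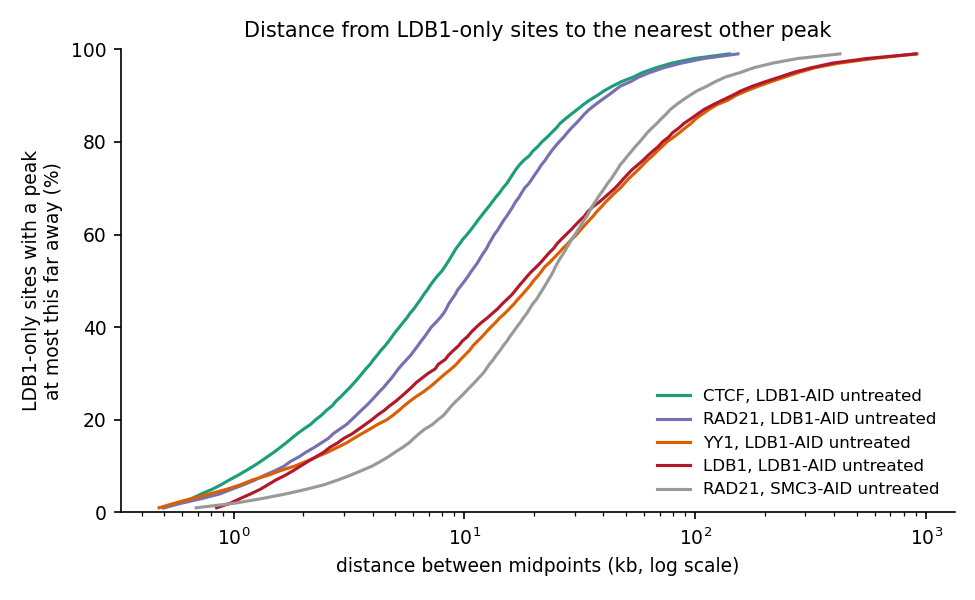
Percentage of LDB1-only sites (y axis) whose nearest peak of each set lies at most the given distance away (x axis, kb between midpoints, log scale). The CTCF curve lies furthest left over most of the range, with a median of 7.35 kb, and the YY1 curve has a median of 19.9 kb.

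The values on either side of the rule's boundary were as follows. Just inside it, 196 LDB1-only sites lay with a gap of 0 to 100 bp from a partner peak (CTCF, RAD21 or YY1), of which 12.2% (8.37 to 17.6) were kept after LDB1 degradation and 71.4% were found in untreated SMC3-AID cells. Just outside it, 297 LDB1 peaks overlapped a partner by 1 to 100 bp, of which 7.41% (4.94 to 11) were kept and 67% were found there. Of 510 LDB1 peaks with an overlap over 100 and up to 200 bp, 11.4% (8.9 to 14.4) were kept. LDB1 peaks that overlapped a partner by more than 200 bp numbered 3329, of which 16.6% (15.3 to 17.9) were kept. The share kept was thus not ordered across the boundary, and its intervals on the near sides of it overlap.

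Further from the partner peaks the share kept was low. It was 5.49% (3.01 to 9.82) of 182 sites with a gap over 100 and up to 200 bp, 3.33% (2.35 to 4.68) of 932 with a gap over 200 and up to 1000 bp and 1.98% (1.48 to 2.64) of 2270 with a gap of 1 to 5 kb. It was 2.84% (2.24 to 3.58) of 2363 sites with a gap of 5 to 25 kb and 4% (2.74 to 5.8) of the 650 beyond 25 kb. The share found in untreated SMC3-AID cells went from 64.4% (62.4 to 66.3) at 1 to 5 kb to 62% at 5 to 25 kb and 56.8% (52.9 to 60.5) beyond 25 kb. The sites most distant from CTCF, RAD21 and YY1 were thus called least often in the other subline, while their share kept after LDB1 degradation was not the lowest.

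**Figure D3:**
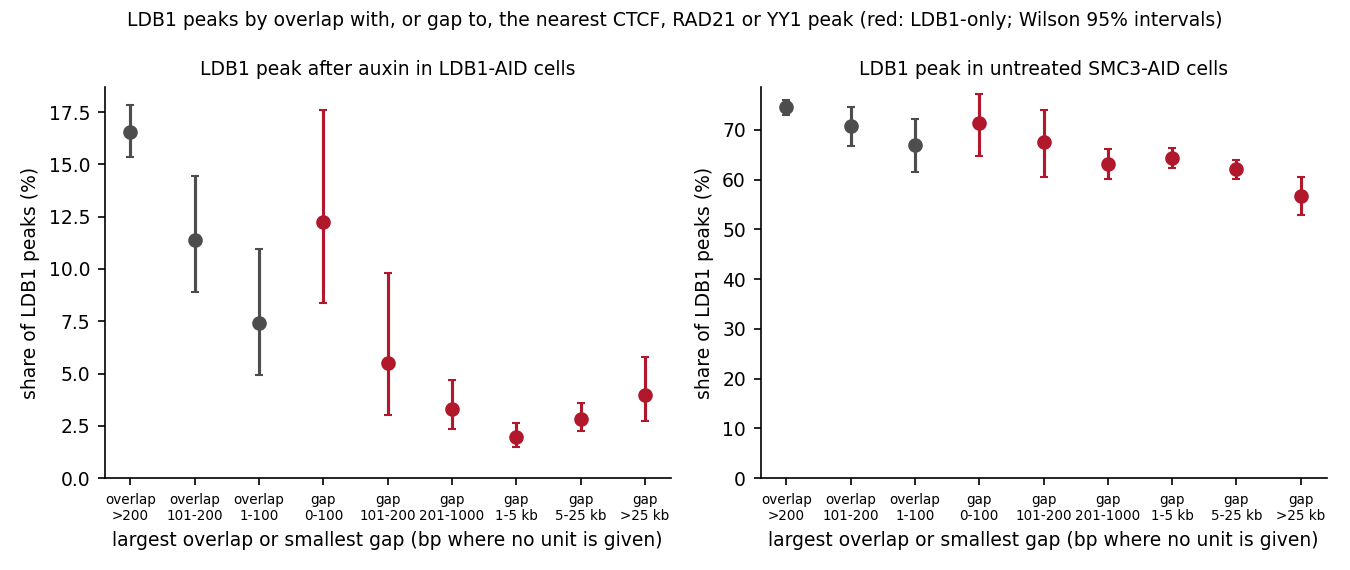
Share (%) of LDB1 peaks kept after LDB1 degradation (left) and found in untreated SMC3-AID cells (right), by the largest overlap with, or the smallest gap to, a CTCF, RAD21 or YY1 peak; LDB1-only sites are red and bars are Wilson 95% intervals. On the left the share is 12.2% at gaps of 0 to 100 bp and 1.98% at 1 to 5 kb.

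Sites with a partner peak at a gap of at most 1 kb were compared with the rest. Of 1310 near sites 65 were kept after LDB1 degradation, or 4.96%, and of 5283 far sites 138, or 2.61% (odds ratio 1.95, 1.44 to 2.63; Fisher's exact test, adjusted p = 5.2e-05). Without the 196 sites within 100 bp of a partner the odds ratio was 1.42 (0.999 to 2.03; exact p = 0.057), so the call rests on the sites that adjoin a partner peak, a check chosen after the data were seen. With the split at 5 kb it was 0.995 (exact p = 1). In SMC3-AID cells after auxin, 57.5% of near and 52.4% of far sites were called (odds ratio 1.23, 1.09 to 1.39; exact adjusted p = 0.00144), with 1.15 (exact p = 0.0345) without the sites within 100 bp and 1.11 (exact p = 0.145) without those within 200 bp. Differences in presence in untreated SMC3-AID cells (65% near, 62.4% far; odds ratio 1.12, 0.987 to 1.27; exact adjusted p = 0.0939) and in retention after SMC3 degradation (81.8% near, 79% far; odds ratio 1.2, 0.987 to 1.45; adjusted p = 0.0878) did not pass the threshold. A SMC3-AID RAD21 peak lay on 22 near and 5 far sites (odds ratio 18, 6.81 to 47.7; exact adjusted p = 1.88e-11). The odds ratio was 9.56 (3.26 to 28) without the sites within 100 bp, 6.84 (2.08 to 22.5) without those within 200 bp and 10.6 with the split at 5 kb. Near sites are partly defined by RAD21 peaks of LDB1-AID cells, so this split is not independent of RAD21 calls.

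By protein, sites with a gap of at most 1 kb to YY1 and to neither other protein numbered 341, of which 5.28% (3.36 to 8.19) were kept after LDB1 degradation. The corresponding shares were 4.2% (2.6 to 6.71) of 381 sites near CTCF alone and 4.5% (1.94 to 10.1) of 111 near RAD21 alone. These intervals overlap, and the classes were not ranked.

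Among LDB1-only sites, those with and without an LDB1 peak nearby showed no difference that passed the threshold. Another LDB1 peak lay within 25 kb of 3808 LDB1-only sites, and none did at 2785. The share with such a neighbour was 57.8%, against 69.6% of the other LDB1 peaks, and this difference was not tested. The share kept after LDB1 degradation was 2.94% with a neighbour and 3.27% without (odds ratio 0.897, 0.677 to 1.19; Fisher's exact test, adjusted p = 0.49). The share found in untreated SMC3-AID cells was 63.3% and 62.4% (odds ratio 1.04, 0.94 to 1.15; exact adjusted p = 0.49), and after auxin it was 53.5% and 53.3% (odds ratio 1.01, 0.914 to 1.11; adjusted p = 0.881). Retention after SMC3 degradation was 78.5% and 81% (odds ratio 0.857, 0.734 to 0.999; exact adjusted p = 0.0672). The intervals bound each difference and do not show that it is 0. A SMC3-AID RAD21 peak lay on 20 sites with a neighbour and on 7 without (odds ratio 2.1, 0.885 to 4.96; exact adjusted p = 0.133).

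The kind of neighbour was also compared. In chains, where each LDB1 peak lay within 25 kb of the next, 2162 LDB1-only sites shared a chain with an LDB1 peak that carried a partner, and 2.82% (2.2 to 3.61) were kept after LDB1 degradation. The 1646 sites in chains of LDB1-only sites kept 3.1% (2.36 to 4.05). The nearest LDB1 peak was itself LDB1-only at 64.4% (63.2 to 65.5) of LDB1-only sites and at 53.1% (51.6 to 54.7) of the other LDB1 peaks, while 61.5% of all LDB1 peaks were LDB1-only. These values are descriptions with no test.

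The difference from other LDB1 peaks was spread over the genome. On each of the 20 chromosomes a smaller share of LDB1-only sites than of other LDB1 peaks was kept after LDB1 degradation, with shares of 0.917% (chromosome 16, 2 of 218 sites) to 4.92% against 11.4% to 19.3%. The groups of chromosome values did not overlap. LDB1-only sites were also found less often on all 20 chromosomes in untreated SMC3-AID cells (51.7% to 70.9%, against 63.4% to 81.4%) and after auxin (41.8% to 60.6%, against 58.4% to 75.9%), where the ranges overlapped. The share of LDB1 peaks that were LDB1-only ran from 56% (51.1 to 60.9) on chromosome 16 to 73.3% (66.7 to 79) on chromosome X, which had the fewest LDB1 peaks (195).

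**Figure D4:**
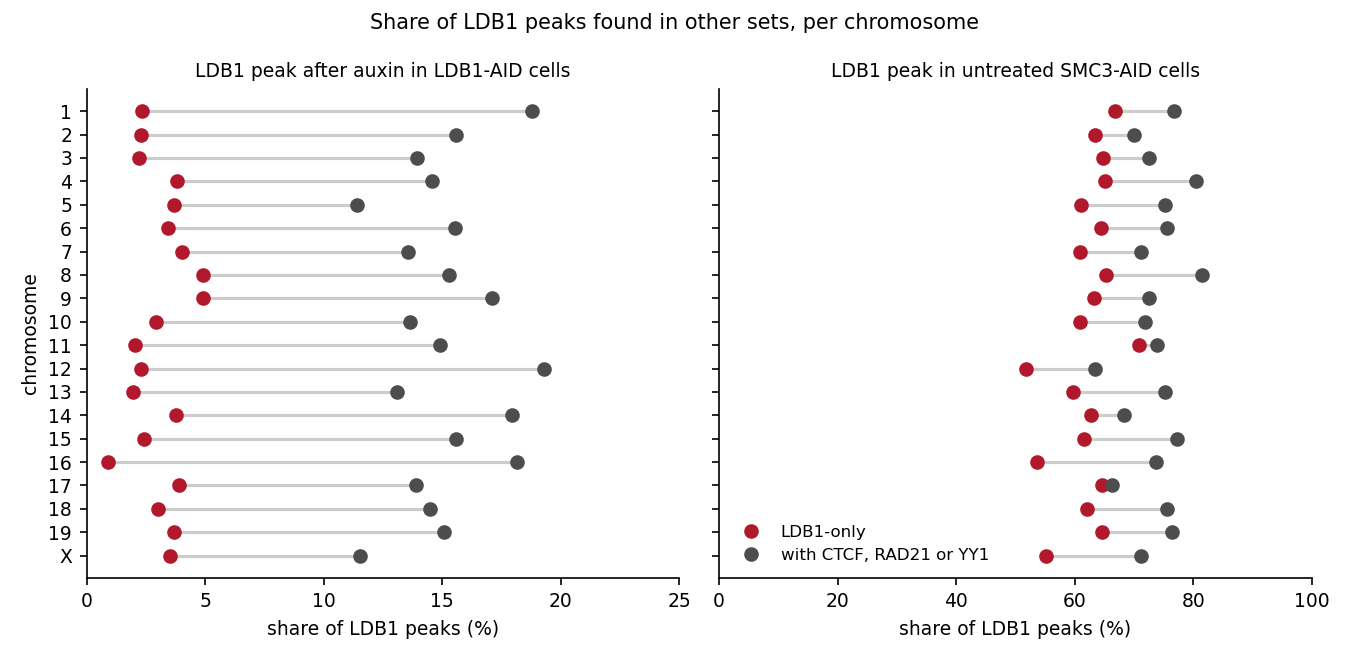
Share (%) of LDB1-only sites (red) and of other LDB1 peaks (grey) on each chromosome that were kept after LDB1 degradation (left, axis to 25%) or found in untreated SMC3-AID cells (right). The red point lies left of the grey one on all 20 chromosomes in both panels.

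Where a site was called again, its position was nearly the same. A match needed at least 1 shared bp, so no match could be displaced by 400 bp or more. The midpoint of the matched LDB1 peak in untreated SMC3-AID cells lay a median of 25 bp away (quartiles 12 and 45, 4149 sites), and 26 bp (12 and 47) after auxin there. In auxin-treated LDB1-AID cells it lay 36 bp away (16 and 74, 203 sites). For the other LDB1 peaks the medians were 26, 28 and 39 bp. Matches displaced by more than 200 bp made up 1.83% of LDB1-only sites and 3.55% of other peaks in untreated SMC3-AID cells.

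Long runs of LDB1-only sites were uncommon, and they were not set beside runs of other LDB1 peaks. Joined to each other at distances of up to 25 kb, 3770 sites had no other LDB1-only site so near, 1175 chains held 2 or more and 33 held 5 or more, with 181 sites in all. The 3 largest held 7 each. Of all 6593 LDB1-only sites 3.08% were kept after LDB1 degradation, so a chain of 7 with none kept does not stand out. In the SMC3-AID subline 62.9% of the 6593 were called without auxin and 53.4% with it. The counts of the chains below were not tested against these shares. Positions below are in mm9, the build named in the submitters' processing notes, counted from 1.

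The chain on chromosome 16 (34035899 to 34079174, 43.3 kb) had 5 of its 7 sites called in each of the SMC3-AID LDB1 sets and none kept after LDB1 degradation. It held 1 further LDB1 peak, which had a partner, with 2 CTCF, 2 RAD21 and 1 YY1 peaks between its ends. The 2 sites that were not called in SMC3-AID cells were the outermost, at 34035899 to 34036298 and at 34078775 to 34079174. Between midpoints, its member at 34057563 to 34057962 lay 466 bp from a YY1 peak and 16448 bp from the nearest RAD21 peak. The chain's closest approach to RAD21, also between midpoints, was 3.84 kb, at the member at 34078775 to 34079174. Intervals are 400 bp wide, so the gap between edges is 400 bp less than a midpoint distance.

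The chain on chromosome 11 (11741564 to 11795857, 54.3 kb) had 6 of its 7 sites called without and 5 with auxin in the SMC3-AID subline, and none kept after LDB1 degradation. It spanned 1 LDB1 peak with a partner, 2 CTCF, 2 RAD21 and 1 YY1 peaks. The site at 11776389 to 11776788 was called in untreated SMC3-AID cells only, and that at 11795458 to 11795857 in neither.

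The chain on chromosome 5 (114351969 to 114453609, 102 kb) contained no other LDB1 peak, although 11 CTCF and 9 RAD21 peaks and 1 YY1 peak lay among its sites. Of its 7 sites, 4 were called without and 3 with auxin in the SMC3-AID subline, and none was kept after LDB1 degradation. The site at 114387787 to 114388186 lay 463 bp from a RAD21 peak between midpoints, a distance that includes the 400 bp interval width. That site was not called in SMC3-AID cells.

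**Figure D5:**
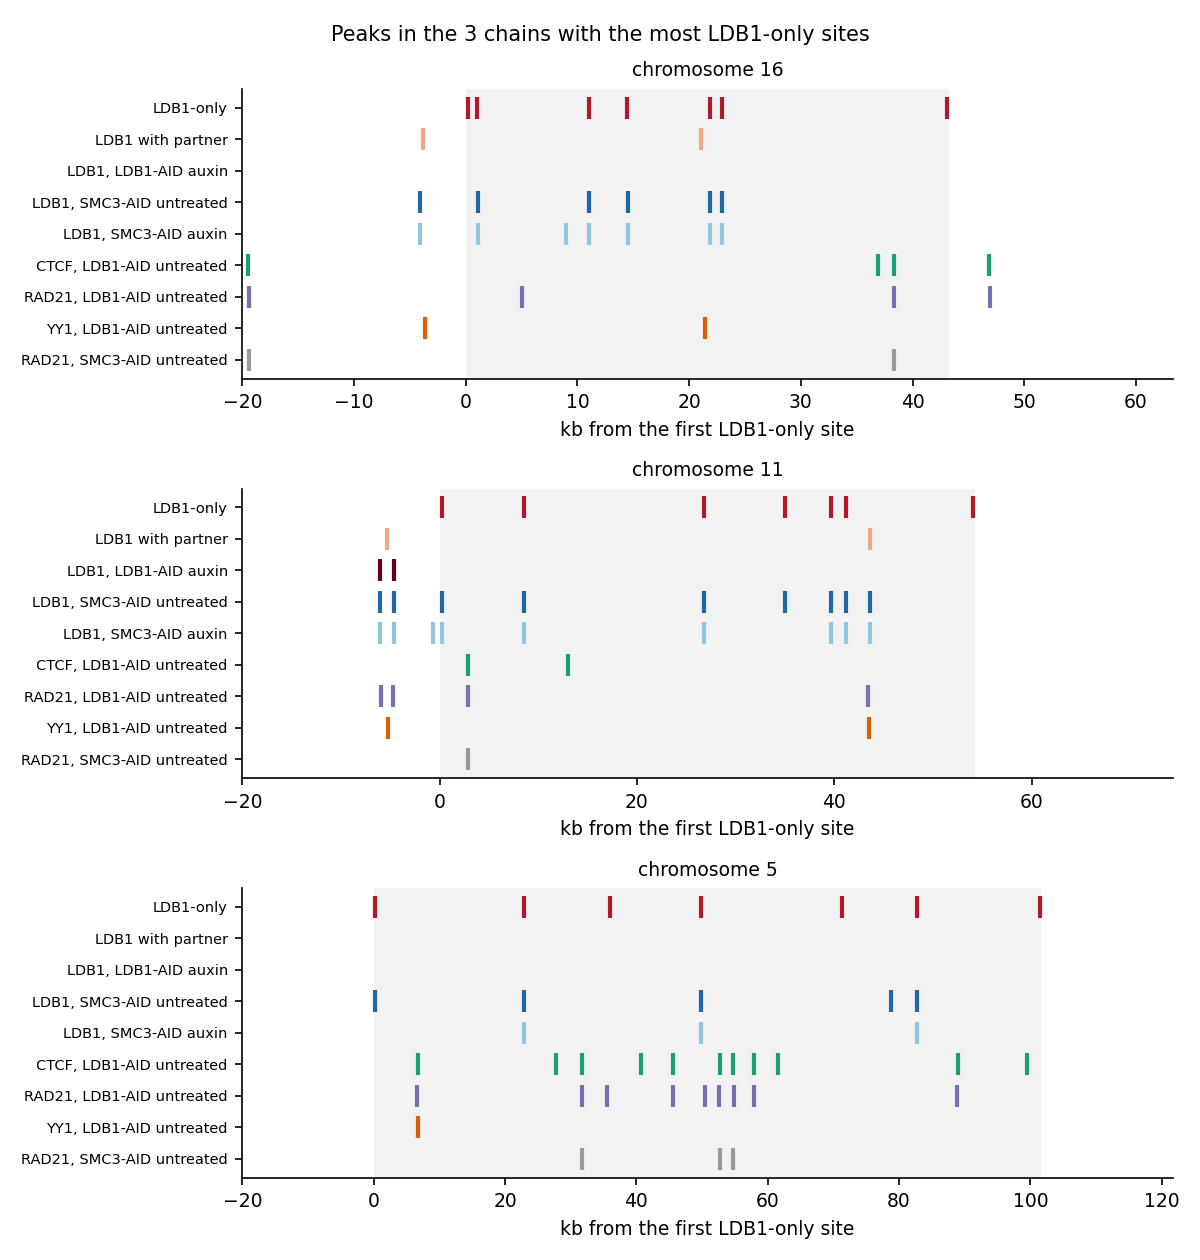
Peaks (vertical ticks) of 9 tracks along the 3 chains with the most LDB1-only sites, by distance (kb) from the first site; the grey band is the chain and 20 kb are shown on each side. Each chain holds 7 LDB1-only sites (top track, red), and no auxin LDB1 peak of LDB1-AID cells lies inside a band. Of all LDB1-only sites 3.08% were kept after LDB1 degradation.

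A total of 158 LDB1-only sites (2.4%) were called in all 4 LDB1 sets, against 697 (6.5%) of all LDB1 peaks. The 3 of these that lay farthest from any CTCF, RAD21 or YY1 peak were solitary. The site on chromosome 3 (6204685 to 6205084) lay 98 kb from the nearest CTCF, 98.1 kb from the nearest RAD21 and 344 kb from the nearest LDB1 peak. The site on chromosome 14 (40682512 to 40682911) lay 87.4 kb from both CTCF and RAD21 and 441 kb from another LDB1 peak. The site on chromosome 2 (109832931 to 109833330) lay 62 kb from CTCF, 74.9 kb from RAD21 and 645 kb from another LDB1 peak. Their matched peaks in the other LDB1 sets were displaced by 6 to 75 bp.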

How the data were processed

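The 9 peak sets were deposited by the authors as lists of chromosome, start and end, with no other values: positions in bp, not scores. The submitters' processing notes name Bowtie2, MACS2 2.2.9.1, deepTools 3.5.1 and mm9, without roles. The peak threshold and the consensus rule are not given in the sources used here. All intervals were 400 bp wide. Samples were grouped by title, and each set combines the replicates of its group.

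Peaks were matched when they shared at least 1 bp. Shares have Wilson 95% intervals; classes were set against each other with odds ratios, two-sided exact tests of Fisher and Benjamini-Hochberg adjustment over 25 tests. Odds ratios stratified by chromosome, neighbour or subline are Mantel-Haenszel values. SciPy 1.17.1 and statsmodels 0.14.6 were used; the functions were tested on simulated data, and member counts matched bedtools 2.31.1 with a difference of 0.

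The members and lists were chosen with earlier results of these data known. The named positions are the 3 longest chains by members, ties by shorter span, and the 3 sites kept in all LDB1 sets farthest from a partner. Motif, promoter and gene results were not run, since no sequence or annotation of mm9 was used here. Samples without one of these 9 sets were not analysed here.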

Additional observations from a re-analysis of the deposited data

Results flagged for a closer look

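Outside chromosomes 1 to 19 and X, which the comparisons do not use, 12 untreated LDB1 peaks of LDB1-AID cells lay on mitochondrial DNA or contigs named random, and 8 of them overlapped no CTCF, RAD21 or YY1 peak. This is 66.7% (Wilson 95% interval 39.1 to 86.2), beside 61.5% on the main chromosomes, and was listed only because these contigs were not used elsewhere. Of these 8, 2 were kept after LDB1 degradation and 5 were found in untreated SMC3-AID cells. Chance was not tested for so few peaks.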

How the results depend on the processing

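Of 217 alternative values over 35 results, 150 of 158 odds ratios kept their direction and side of the threshold of 0.05, and 57 of 59 counts or medians stayed within 1.5 times the reported value or within the quartiles. In comparisons with other LDB1 classes every alternative odds ratio stayed below 1 and past the threshold. Those for a SMC3-AID RAD21 peak against classes with RAD21 largely follow from the rule and are not independent support. For sites kept after LDB1 degradation the odds ratio ranged from 0.16 to 0.194 against all other LDB1 peaks. It ranged from 0.163 to 0.199 against peaks with RAD21 alone and from 0.26 to 0.312 against peaks with YY1 alone. LDB1-only sites numbered 7387 when at least 50% of both intervals had to be shared and 5283 when a gap of 1 kb counted as shared. Under the same settings, sites with a SMC3-AID RAD21 peak numbered 42 and 7, against 27. Split at 5 kb in place of 1 kb, the odds ratio for near against far sites was 0.995 for being kept after LDB1 degradation, 1.17 for being found in untreated SMC3-AID cells (p = 0.0018, Fisher's exact test) and 1.19 for retention after SMC3 degradation (p = 0.0271). Without sites within 100 bp and 200 bp of a partner, the first was 1.42 and 1.28, and for sites called in auxin-treated SMC3-AID cells it was 1.15 and 1.11 without those within 100 bp and 200 bp. For neighbours within 100 kb the odds ratio of being found in auxin-treated SMC3-AID cells was 0.998, and within 10 kb that of a SMC3-AID RAD21 peak was 2.44 (exact p = 0.0268). The causes were not tested. Stratification by the other subline, the removal of chromosome 9 below 3.1 Mb, the removal of near sites, and the alternatives for chromosomes and offsets were chosen after the data were seen. No paired analysis was possible because each set holds combined replicates, and leaving out a replicate was not run for the same reason.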
